A study of Xenopus tropicalis with 26 samples.

Results

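The genes described here encode the proteins by which cells of the early frog embryo hold to each other and to the matrix around them: cadherins, protocadherins, claudins, integrin chains, laminin chains, collagen chains, fibronectin (*fn1*), *epcam* and the tight junction scaffolds of the tjp family. The rule that chose them used only the symbol in the row name, but it was set with earlier results of these data known. They comprised 150 of the 34192 genes listed. Of these, 144 belonged to the named families and 6 were caught by their symbol only (*itgb1bp1*, *itgb1bp2*, *itgb3bp*, *col4a3bp*, *cldnd1* and *col4a2-as2*). The pairs of rows that carry the same symbol (*col11a2*, *col5a3* and *pcdh9*) were kept apart by their row identifier. RSEM divides reads that fit several transcripts, so values of near copies such as *cldn6.1* and *cldn6.2*, or of *col4a2* and its antisense gene *col4a2-as2*, depend on that division. The reads were stranded, and the RSEM options listed in the study's methods include none for strand.

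Whole *Xenopus tropicalis* embryos were sampled every 30 min from stage 8, so that the last of 13 time points fell at 6 h, and each sample pooled 10 embryos of 1 clutch raised at 25 °C. Control embryos (called UIC in the labels) developed in dilute Ringer's medium, and the second group (called hiK) in the same medium with 10 mM KCl. The paper reports that high K+ depolarized embryos, but it gives no recording of membrane potential from the sequenced embryos. The comparison asks how transcript levels of embryos in high K+ depart from those of a control through blastula and gastrula stages. The RNA-seq methods do not state when exposure to KCl began. The general methods start treatments during gastrulation at stage 8, the stage of the first samples. How long the 0 h samples had been exposed is thus unknown. The 26 samples comprised 1 time course per condition, so no biological replicates exist, neighbouring time points stand in for replicates in the tests below, and their p-values measure only the spread between such samples. Values are abundances per transcript length, scaled by the authors to ERCC spike-in RNAs, and how many reads lie behind them is unknown. The paper describes a batch-dependent bias against AT-rich transcripts, which varied between control and high K+ samples and was corrected separately in each. How much of it remained in the differences between conditions was not tested.

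Cadherins join neighbouring cells through adherens junctions, claudins and *epcam* act at the contacts of epithelial cells, and the scaffolds of the tjp family tie tight junctions to the actin cortex. Integrins are pairs of an alpha and a beta chain that bind matrix proteins such as fibronectin, laminin and collagen. In the *Xenopus* gastrula, mesoderm migrates over fibronectin fibrils on the blastocoel roof, and the switch from maternal to zygotic transcripts takes place during the hours sampled here.

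Across all tested genes, the median log2 difference between high K+ and control was not steady over time: it was highest at 1.5 h (0.48) and lowest at 4.5 h (-0.38). The level of the spike-in RNAs was higher in the high K+ sample at 10 of 13 time points, and samples of one time point correlated at a Spearman rho of 0.937 to 0.982 across genes. Germ layer markers were present in the embryos as labelled, with highest control abundances from 22.6 (*tp63*, ectoderm) to 3836 (*krt18*, ectoderm) over the 13 markers with a row. Their summed abundance ranged from 1508 to 6392 in control and from 1689 to 5873 in high K+. Of the 13, *chrd* (mean log2 difference 0.90), *sox17a* (0.56), *eomes* (0.48) and *sox3* (0.30) were activated in high K+ by the call explained with the second comparison, and *sox2* (-0.04) and *myod1* (-0.03) repressed. Their part in the results on adhesion genes was not tested. In whole embryos, fewer cells of a type and less RNA per cell cannot be told apart.

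Of the 150 genes, 62 exceeded an abundance of 0.4 in 6 consecutive samples of a condition and were tested, among 15019 genes tested in all. The tested genes comprised 9 of 22 cadherins, 12 of 23 protocadherins, 9 of 22 claudins, 5 of 14 integrin alpha and 2 of 8 beta chains, 6 of 11 laminin chains, 9 of 39 collagen chains, *fn1*, *epcam*, the scaffolds and 5 of the 6 genes outside the families. Levels were very unequal. The 5 most abundant genes (*cldn7*, *epcam*, *cldn6.1*, *cldn6.2* and *cldn4*) held between 82.5% and 92.2% of the summed abundance in every sample. Only 9 genes averaged above 100 over the 26 samples, and 10 of those tested averaged under 1.

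The other 88 genes stayed low. Of these, 64 never exceeded 0.4 in a sample, 8 were listed at 0 in every sample, and 15 exceeded 1 somewhere. The highest value was 6.95, for *itga4*, the alpha chain of a receptor for fibronectin and VCAM-1, in high K+ at 6 h, where control reached 3.29. Several collagen chains of this group also had their highest control value at 6 h, among them *col2a1*, a fibrillar collagen of notochord and cartilage (2.71 in control and 4.72 in high K+), and *col5a1* (2.88 and 3.90). The basement membrane collagen *col4a1* never exceeded 0.104. No row carried the symbol *cdh3*, which is not analysed here, and cldn6 was listed as *cldn6.1* and *cldn6.2*.

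**Figure D1:**
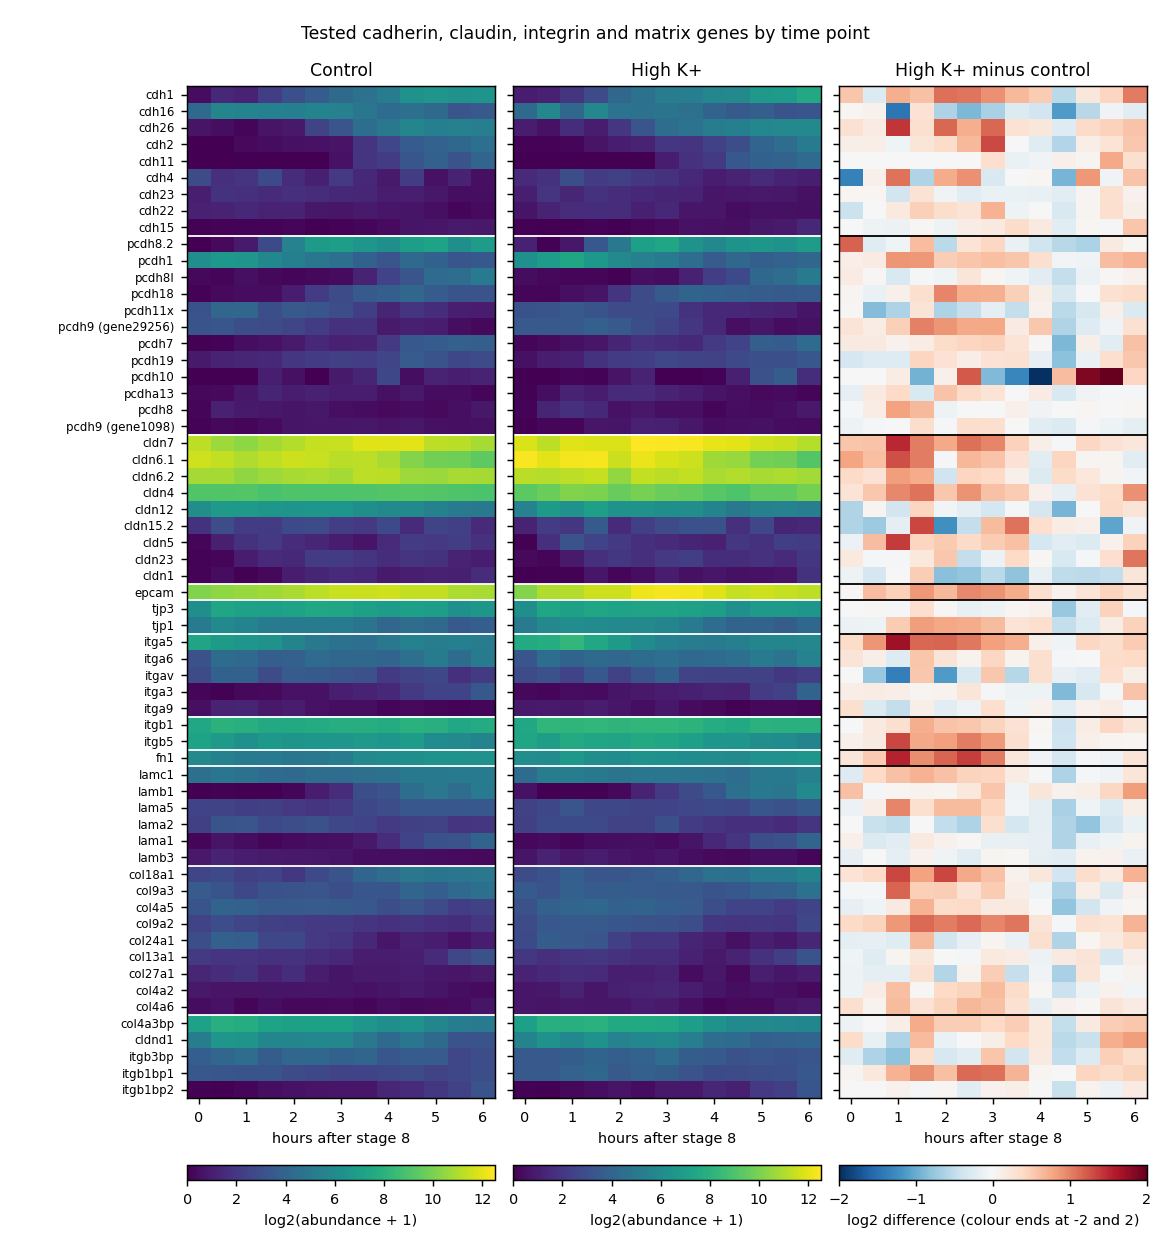
Levels of the tested genes that are reported, as log2(abundance + 1), by hours after stage 8 in control (left) and high K+ (middle), and the difference high K+ minus control at each time point (right), with lines between families and the 5 genes outside the families last. The claudins and *epcam* were the most abundant block, the late genes such as *cdh2* and *lamb1* filled in after 3 h in both conditions, and the right panel was mostly red from 1 to 3 h and pale or blue at 4.5 h.

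The first comparison asks which of these genes changed while the control embryos passed from blastula to late gastrula. As many of these genes rose as fell. Abundance rose from the first 3 samples (0 to 1 h) to the last 3 (5 to 6 h) for 24 genes and fell for 24 in limma with Benjamini-Hochberg adjustment (adjusted p under 0.05), with 14 passing in neither direction. Over all tested genes, 19.5% rose and 55.7% fell, whereas 38.7% of the adhesion and matrix genes tested did each. The median log2 change was -0.09 for these genes and -0.87 for all tested genes. Changes are given on the log2(abundance + 1) scale, which understates the change of low genes.

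Among the cadherins, 5 rose and 4 fell. *cdh1*, which encodes E-cadherin of epithelia, was at 0.341 in the first control sample, had a median of 18.9 and reached 90.2 at 5 h. It rose by 5.46 ± 0.33 (SE) on the log2 scale (adjusted p = 3e-08, limma). The 3 late samples, at 84.1 to 90.2, lay far above the early ones, at 0.341 to 1.71. *cdh26* rose likewise, from 0.602 in the first sample to a highest value of 50.2 at 4.5 h (log2 change 4.95 ± 0.27). *cdh2*, encoding N-cadherin of neural and mesodermal tissue, was listed at 0 in the first pair of control samples, stayed under 1 through 3 h, and then climbed to 22.6 at 6 h (log2 change 4.14 ± 0.27). *cdh11*, a cadherin of mesenchyme and, in *Xenopus*, of neural crest, was listed at 0 in every control sample through 2.5 h and reached 15.7 at 6 h. *cdh15* also rose, by 0.75, at levels under 1. The 4 cadherins that fell were *cdh16*, known as a kidney cadherin in mammals, *cdh4*, *cdh23* and *cdh22*, by 0.89 to 1.49 on the log2 scale, and of these only *cdh22* also passed with all samples scaled to a median ratio of 1.

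Protocadherins moved furthest in both directions. *pcdh8.2*, of the group that holds the paraxial protocadherin of the frog gastrula, was listed at 0 in the first control sample, passed 100 by 2.5 h and reached 152 at 5 h. Its log2 change of 6.37 ± 0.36 (adjusted p = 1.6e-08, limma) was the largest of all members tested. It rose earlier than *pcdh8l*, which stayed under 0.5 through 3 h and reached 33.3 at 6 h (log2 change 4.31 ± 0.28). *pcdh7*, called NF-protocadherin in *Xenopus*, rose by 3.54 ± 0.23 to a highest control value of 13.4. *pcdh18* reached its highest control value, 16.4, at 4.5 h and rose by 3.09. *pcdh1*, called axial protocadherin in *Xenopus*, went the other way: it peaked at 102 at 0.5 h, had a median of 22.4 and was at 9.87 at 6 h (log2 change -2.89 ± 0.28). *pcdh9* (gene29256) and *pcdh11x* also fell, by 2.63 and 2.57 on the log2 scale, and all 3 of these falls also passed under both scalings tried.

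At epithelial contacts *cldn6.1* fell and *epcam* rose, while *cldn7*, *cldn6.2* and *cldn4* did not pass. Under the median ratio scaling the latter rose, by 1.55, 1.31 and 1.15. *cldn7* ranged in control from 1345 at 1 h through a median of 2417 to 4124 at 4.5 h, and *cldn4* from 485 to 597 with a median of 542, and neither passed the test (log2 changes 0.33 and -0.07). *cldn6.1* fell, from 3095 in the first control sample to 670 in the last (log2 change -1.67 ± 0.24), with most of the decline after 3.5 h, but did not pass under the median ratio scaling (-0.46, adjusted p = 0.17). Its neighbour in name, *cldn6.2*, stayed between 1381 and 2420 (log2 change 0.09). *cldn12* also fell, by 1.29, although it was at -0.09 under that scaling, and *cldn1* and *cldn23* rose, by 1.08 and 0.93, to levels of a few units at most. The rise of *cldn23* did not pass under spike-in scaling (0.80). *epcam*, the epithelial cell adhesion molecule, climbed from 1138 at 0 h to 3093 at 4 h and was at 1957 at 6 h (log2 change 0.71 ± 0.25, adjusted p = 0.019), a rise that did not pass under spike-in scaling (0.39, adjusted p = 0.44). Of the scaffolds, *tjp1* fell from a highest value of 62.9 at 0.5 h to 12.2 at 6 h (log2 change -1.77 ± 0.31), while *tjp3* did not pass (-0.30).

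The chains of the fibronectin receptor and fibronectin itself followed different courses in control. *itga5*, the alpha chain of that receptor, was highest in the first sample (155), lowest at 3.5 h (22.8) and at 38.3 at 6 h, with a median of 40.9. It fell by 1.59 on the log2 scale (SE 0.22, adjusted p = 3.2e-05, limma), and by 0.39 under the median ratio scaling, where it did not pass (adjusted p = 0.19). *itgb1*, the beta chain shared by most matrix integrins, stayed between 181 and 259 around a median of 207 and did not pass (log2 change -0.12), but turned to 1.10 and passed under the median ratio scaling. *fn1* dipped from 59.0 at 0 h to 29.3 at 2 h and then rose to 82.0 at 5 h, so that its late samples lay above the early ones (log2 change 0.85 ± 0.23, adjusted p = 0.0049). Under spike-in scaling this rise did not pass (0.54, adjusted p = 0.17). *itgb5* and *itgav*, chains of a vitronectin receptor, both fell, by 0.88 and 1.36, but neither passed under the median ratio scaling (0.33 and -0.34). The laminin receptor chains *itga6* and *itga3* rose, by 0.97 and 2.64, and the rise of *itga6* did not pass under spike-in scaling (0.67).

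Basement membrane transcripts appeared late and unevenly. *lamb1*, the beta chain of the embryonic laminin, was at or under 0.152 through 2 h in control and at 34.2 at 6 h (log2 change 4.81 ± 0.30). *lama1* rose later still, from under 1 through 3.5 h to 15.2 at 6 h (log2 change 3.03 ± 0.31). Their partner *lamc1* was present throughout, between 18.0 and 35.4, and did not pass (log2 change 0.38). *lama5* rose by 0.94 and *lama2* and *lamb3* fell by 0.87 and 0.68. Neither fall passed under the median ratio scaling (0.14 and -0.24), and the rise of *lama5* did not pass under spike-in scaling (0.67). Among collagens, *col18a1* of the basement membrane rose from 3.08 at 2 h to 30.2 at 4.5 h (log2 change 2.33 ± 0.26). *col24a1*, a fibrillar collagen, fell from 13.5 at 0.5 h to 0.988 at 6 h (log2 change -2.67 ± 0.30). *col9a3* also rose, by 1.03, and *col4a5*, *col9a2* and *col27a1* fell by 0.74 to 1.16. None of these falls passed under the median ratio scaling (-0.08, 0.02 and -0.07), and the rise did not pass under spike-in scaling (0.74).

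Of the genes that only share a symbol with the families, *itgb1bp2* rose by 2.49 and the other 4 fell. *col4a3bp*, which encodes the ceramide transfer protein and no collagen, was the most abundant, at 36.1 to 234 in control, and fell by 2.17. *cldnd1* fell by 2.51, *itgb3bp*, which encodes a centromere protein, by 1.03, and *itgb1bp1*, whose product binds the tail of the beta 1 integrin chain, by 0.58. The last pair were at 0.08 and 0.50 under the median ratio scaling.

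The genes that fell shared an early peak and those that rose a late one. All 24 that fell had their highest control value at 0 h (5 genes), 0.5 h (12) or 1 h (7). Of the 24 that rose, 20 had it at 4.5 h or later. The groups were formed from the same control samples, so these peak times follow in part from that choice and are given as a description. Scaling every sample to a median ratio of 1, which moved the median change of all tested genes from -0.87 to 0.10, left 9 of the 24 falls and all 24 rises past the threshold (33 rises and 9 falls in all), and scaling to the spike-in level left all 24 falls and 17 of the rises. Of all tested genes, 36.8% rose and 31.0% fell under the median ratio scaling, and 15.3% and 55.0% under spike-in scaling. None of the risen or fallen members passed in the opposite direction under either scaling.

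**Figure D2:**
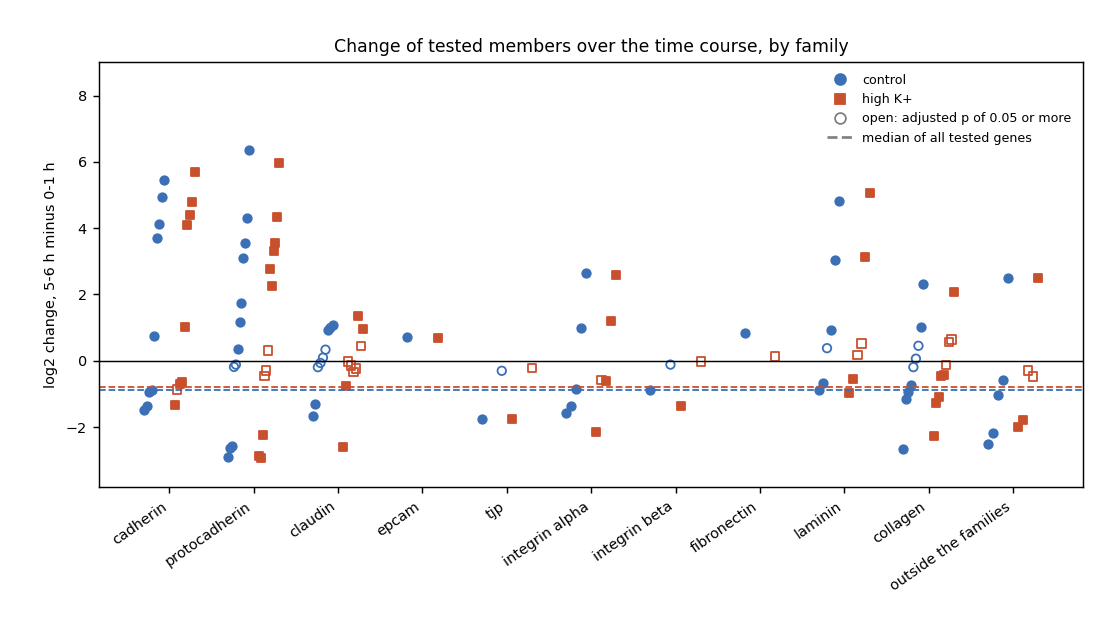
Log2 change of each tested gene that is reported from 0-1 h to 5-6 h (vertical axis), by family, in control (circles) and high K+ (squares), with filled points past an adjusted p of 0.05 and dashed lines at the median of all tested genes (-0.87 in control and -0.78 in high K+). Cadherins and protocadherins spanned from about -3 to 6, and the claudins from -1.67 to 1.08 in control and from -2.61 to 1.34 in high K+. Scaling samples to a median ratio of 1 moved several genes from below to above 0 in control. Among them were *cldn4*, *itgb1*, *tjp3*, *itgb5*, *lama2*, *col9a2*, *itgb3bp* and *itgb1bp1*.

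Most of these calls recurred in high K+. Between 0-1 h and 5-6 h, 20 genes rose and 21 fell in high K+ (limma, adjusted p under 0.05), against 20.4% and 53.3% of all tested genes. Under the median ratio scaling 33 rose and 9 fell, beside 36.1% and 29.9% of all tested genes. Under spike-in scaling 18 rose and 10 fell, beside 18.6% and 37.7%. In both conditions 40 genes passed in one direction, and none passed in opposite directions. *cdh1* rose by 5.69 on the log2 scale in high K+, *pcdh8.2* by 5.95, *lamb1* by 5.07 and *cdh2* by 4.40. *pcdh1* fell by 2.87 and *cldn6.1* by 2.61. *fn1* passed in control and not in high K+, where its log2 change was 0.13, but the difference of the changes was itself tested and did not pass (-0.72, adjusted p = 0.96).

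Tested as a difference of differences, no adhesion or matrix gene passed for a larger or smaller change in high K+ than in control (limma, adjusted p under 0.05), where 0.00666% of all tested genes passed upward and 0.0133% downward, 1 and 2 genes. At an unadjusted p under 0.05, 1 gene passed upward and 2 downward, and with the time point as a block 2 and 1. Without the 6 h samples 1 gene passed, *pcdh10* (adjusted p = 0.040), a protocadherin whose values jumped between neighbouring samples, from 12.0 at 5.5 h to 2.14 at 6 h in high K+ and from 5.55 at 4 h to 0.401 at 4.5 h in control. Its control samples at 0 to 1 h were all listed at 0.

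The second comparison asks which genes stood at a different level in high K+ at the same time points. A gene was called where separate Gaussian process fits of the 2 courses gave a higher likelihood than a shared fit, and activated or repressed by the sign of the mean difference. Adhesion and matrix genes were called in the upward direction only: 22 of 62 (35.5%) were activated and none repressed, beside 29.6% and 9.25% of all tested genes. The share activated was thus near that of all genes. By family, 3 claudins, 3 cadherins, 3 protocadherins, 4 collagens, 2 laminin chains, 1 alpha and 2 beta integrin chains, *epcam*, *fn1*, *tjp1* and *itgb1bp1* were activated. The median over the 62 genes of the mean log2 difference was 0.12 (SD over time points 0.215), beside 0.08 over all tested genes. On average 44 of the 62 were higher in high K+, as were 8851 of all 15019 tested genes. With pairwise scaling to a median ratio of 1 it was 38 of the 62, and with spike-in scaling 36. The medians were then 0.064 and 0.065 over these genes, and -0.010 and -0.028 over all tested genes. Of the 22 activated genes, 11 were activated under both scalings tried: *cldn4*, *cldn7*, *cldn6.1*, *epcam*, *fn1*, *itga5*, *itgb5*, *itgb1bp1*, *col9a2*, *col4a6* and *pcdh10*. Of these, *pcdh10* lost the call without the 5 h samples (ratio -0.08) and without those at 5.5 h (-1.02). Its log2 difference changed sign over time, from -2.57 at 4 h to 2.65 at 5.5 h. The mean was 0.10, and -0.13 with a pseudocount of 0.1. Under spike-in scaling the ratios of the 11 ranged from 0.63 (*cldn4*) to 6.12 (*col4a6*). Pairwise scaling to a median ratio of 1 gave 15 activated and 4 repressed, and scaling to the spike-in level 13 and 3. Another rule for the call, limma with the time point as a block, gave 19 higher and 4 lower, and limma without the block 2 and 0.

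The claudins and *epcam* carried the largest amounts. *cldn4*, a claudin of epithelial tight junctions, had the largest log-likelihood ratio of all members without scaling (15.7), but a ratio of 0.63 under spike-in scaling. Its 13 control values lay between 485 and 597 around a median of 542, and its high K+ values between 532 and 1108 around a median of 787. Only the high K+ sample at 4.5 h was below its control, and at 1 h the abundance was 1108 against 567. *cldn7* had control values of 1345, 2417 and 4124 (lowest, median and highest) and high K+ values of 2179, 3682 and 5816. At 12 of 13 time points high K+ was above control, and the peak came at 2.5 h in high K+ but only by 4.5 h in control. *cldn6.1* was at 5347 in high K+ and 3095 in control at 0 h, ranged from 578 to 5347 in high K+ (median 2977), and the courses came together late, with log2 differences that averaged 0.72 for the first 6 time points and 0.14 thereafter. *cldn6.2* was not called over the course (mean log2 difference 0.24).

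*epcam* stood above control at all 13 time points in high K+. It began level, at 1160 in high K+ and 1138 in control, had medians of 3046 and 1996, and peaked in high K+ at 5215 (3 h) and in control at 3093 (4 h). The log-likelihood ratio was 12.8 (0.78 under spike-in scaling), with a mean log2 difference of 0.51 (SD over time points 0.31). *tjp1* was activated (ratio 4.12) with a mean log2 difference of 0.29 and lost the call under both scalings. In its samples from 1.5 to 3 h the high K+ values were 51.9 to 64.6 and the control values 33.1 to 35.9. *tjp3*, with a mean log2 difference of -0.03, was not called.

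Fibronectin and the chains of its receptor were higher early. *itga5* reached 309 at 1 h in high K+ against 94.7 in control, ranged from 33.9 to 309 in high K+ (median 54.6), and exceeded its control at 12 of 13 time points. The log2 differences averaged 1.05 up to 2.5 h and 0.41 afterwards (log-likelihood ratio 12.3). *fn1* showed no such dip in high K+: where control ranged from 29.3 to 82.0, the high K+ values lay between 59.2 and 99.3 with a median of 70.3. On the log2 scale it was 0.96 higher on average up to 2.5 h and 0.14 higher afterwards, and from 4 to 5.5 h control was the higher. Its ratio was 12.1, and 2.11 under spike-in scaling. *itgb1* ranged from 180 to 307 in high K+ with a median of 273, beside 207 in control (mean log2 difference 0.27), and its call was lost under both scalings. *itgb5* was at 198 at 1 h in high K+ and 77.8 in control, and from 5 h on the pairs differed by under 5 units. The other alpha chains *itga6*, *itgav*, *itga3* and *itga9* were not called, with mean log2 differences of 0.20, -0.20, -0.01 and -0.02.

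**Figure D3:**
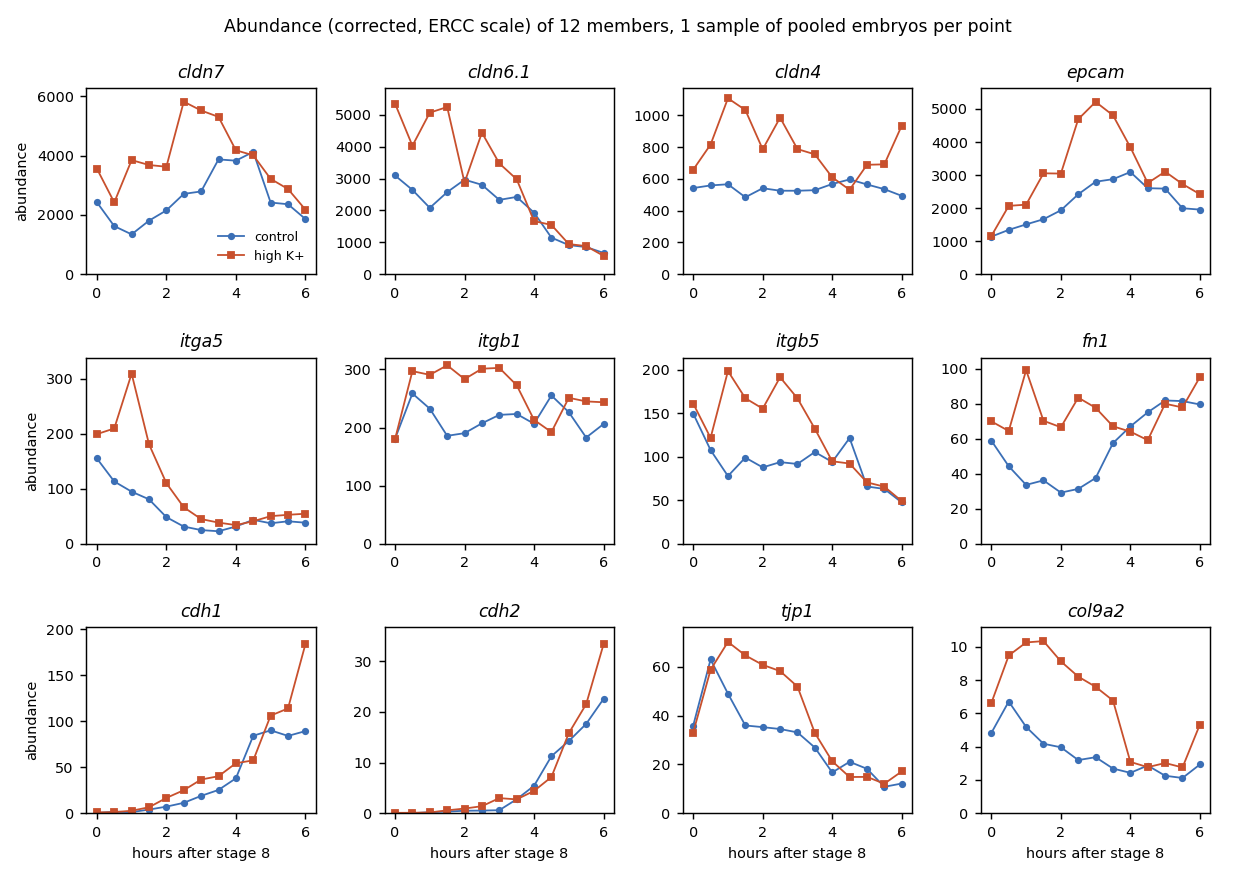
Abundance (vertical axes, from 0) of 12 genes by hours after stage 8 in control (circles) and high K+ (squares), each point 1 sample. The courses of *cldn7*, *epcam*, *itga5*, *fn1* and *col9a2* lay apart from 1 to 3 h and closer together at 4.5 h. *cdh1* and *cdh2* rose late in both conditions and were highest in high K+ at 6 h (184 and 33.3).

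Of the 21 cadherins and protocadherins tested, 6 were activated. *cdh1* exceeded its control at 11 of 13 time points, with high K+ values from 0.977 through a median of 36.7 to 184. From 2 to 3 h its high K+ values were 16.7 to 36.7 and the control values 7.21 to 18.9, at 4.5 h control was the higher (84.3 against 57.5), and at 6 h high K+ was (184 against 89.3). The log-likelihood ratio was 2.02, with a mean log2 difference of 0.54 (SD over time points 0.50). This call was lost under spike-in scaling and also without the 6 h samples, where the ratio was -2.12. *cdh26*, with a mean log2 difference of 0.53, and *cdh22*, with 0.13, were activated with ratios of 0.69 and 0.26 and lost the call under both scalings. *cdh2* and *cdh11* were not called: *cdh2* was at 33.3 in high K+ and 22.6 in control at 6 h, and *cdh11* at 14.6 and 8.25 at 5.5 h. Under spike-in scaling *cdh2* and *cdh15* gained a call as activated (ratios 0.45 and 0.19). *lama2*, *pcdh11x* and *itgb3bp* gained one as repressed (0.14, 3.58 and 1.06). *cdh16* had the lowest mean log2 difference among cadherins (-0.45) and was not called, but under pairwise scaling to a median ratio of 1 it was repressed, as were *cldn1*, *lama2* and *pcdh11x*. *pcdh9* (gene29256), at 10.2 in high K+ and 5.07 in control at 2 h, and *pcdh18* were activated with mean log2 differences of 0.34 and 0.28. The call of *pcdh9* (gene29256) was lost under spike-in scaling (ratio -2.77) and that of *pcdh18* under both scalings. Without the 2, 2.5 or 3 h samples *pcdh18* lost it as well (ratios -1.24, -1.04 and -1.60). The strongly changing *pcdh8.2* and *pcdh1* were not called, with mean log2 differences of 0.01 and 0.44.

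Of the 15 laminin and collagen chains tested, 6 were activated. *col9a2*, a chain of the cartilage collagen IX, was low but had the second largest ratio of all members without scaling (13.5, and 1.67 under spike-in scaling). Its control values lay between 2.12 and 6.71 (median 3.19) and its high K+ values between 2.75 and 10.3 (median 6.77). It was higher in high K+ at every time point except 4.5 h. *col18a1* was at 12.3 in high K+ and 4.25 in control at 1 h, and at 49.0 and 29.9 at 6 h (mean log2 difference 0.51), and lost the call under spike-in scaling (ratio -0.83). *col4a6*, with a mean log2 difference of 0.28, and *col4a2*, with 0.15, chains of the basement membrane collagen IV, were activated at levels that never exceeded 1.6. The call of *col4a2* was lost under spike-in scaling (ratio -2.80) and without the 2, 2.5 or 3 h samples (ratios -0.37, -0.53 and -1.12). *lamc1* and *lama5* were activated with ratios of 1.14 and 1.29 and lost the call under both scalings, and *lamb1* and *lama1* were not called. Outside the families, *itgb1bp1* exceeded its control at all 13 time points, with a median of 10.3 against 6.22 (mean log2 difference 0.52).

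In the tests by window, 3 consecutive samples of each condition were compared by limma, and genes passed in the first 2 of 4 windows. At 0.5 to 1.5 h, 11 genes (17.7%) were higher in high K+ and none lower, beside 12.2% and 0.939% of all tested genes. The largest differences were those of *itga5* (1.24 ± 0.29 SE, adjusted p = 0.0095), *cldn7* (1.04 ± 0.22) and *fn1* (1.00 ± 0.17, adjusted p = 0.0026). *cldn6.1*, *cldn4*, *col18a1*, *col9a2*, *itgb5*, *cldn6.2*, *lamc1* and *pcdh8* were higher by 0.53 to 0.97. For *itga5* the 3 high K+ samples of the window were at 210, 309 and 181 and the control samples at 113, 94.7 and 80.8, so the groups did not overlap.

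At 2 to 3 h, 12 genes (19.4%) were higher and none lower, beside 15.7% and 1.73% of all tested genes. *fn1* had the largest difference (1.19 ± 0.17, adjusted p = 0.00027, limma), with 66.6, 83.6 and 77.8 in high K+ and 29.3, 31.4 and 37.6 in control. *col9a2*, *itga5*, *itgb1bp1*, *cldn7*, *itgb5*, *col18a1*, *epcam*, *cldn4*, *col4a6*, *itgb1* and *col4a2* were higher by 0.49 to 1.05. The lists of the 2 windows shared 7 genes, of 11 in the first and 12 in the second. Of the 16 genes in either, 14 were also activated over the course, a call made on the same samples.

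These calls depended on single samples and on the scaling, as did those over all tested genes. Without the 1 h samples no member passed at 0.5 to 1.5 h, and without those at 1.5 h 4 did. Without the 2.5 h samples 1 passed at 2 to 3 h. Of all tested genes, 0.107%, 2.83% and 2.84% were higher in these 3 settings. Scaling to the spike-in level left none in either window and scaling to a median ratio of 1 left 4 and 6 of them (at 2 to 3 h 7 were then higher and 1, *cdh16*, lower). Of all tested genes, 0.0599% and 0.36% were higher in the 2 windows under spike-in scaling, and 6.61% and 9.83% under the median ratio scaling. Every one of the members called without scaling kept a log2 difference above 0 under both scalings.

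In the later windows no gene passed. At 3.5 to 4.5 h, 0.186% of all tested genes were higher and 0.553% lower, and at an unadjusted p under 0.05 none was higher and 1 lower. At 5 to 6 h, 1.16% and 0.2% of all tested genes passed, and 2 adhesion and matrix genes were higher and none lower at an unadjusted p under 0.05. With the time point as a block, none passed in either late window. Of the 24 genes that had risen in control, 4 were above their control at 4.5 h, 12 at 5 h, 14 at 5.5 h and 23 at 6 h. From 0 to 4 h, 10 to 20 of them were above it at each time point. At 6 h their median log2 difference was 0.38. Over all tested genes the median was -0.38 at 4.5 h, -0.0003 at 5 h, 0.20 at 5.5 h and 0.16 at 6 h. Each time point is 1 pair of samples, and the share of all tested genes above control was not counted.

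Among the 22 activated genes, 13 had their largest log2 difference at or before 1.5 h, 8 between 2 and 3 h and 1 later. Their median was 0.60 up to 2.5 h and 0.17 from 3 h on. These genes were chosen by the same values, so the medians are given as a description. At 1 h the median over activated genes was 0.71 and that over the 40 genes not called was -0.08, beside 0.04 over all tested genes. At 4.5 h, the time point at which all tested genes were lowest, the medians were -0.31, -0.48 and -0.38.

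**Figure D4:**
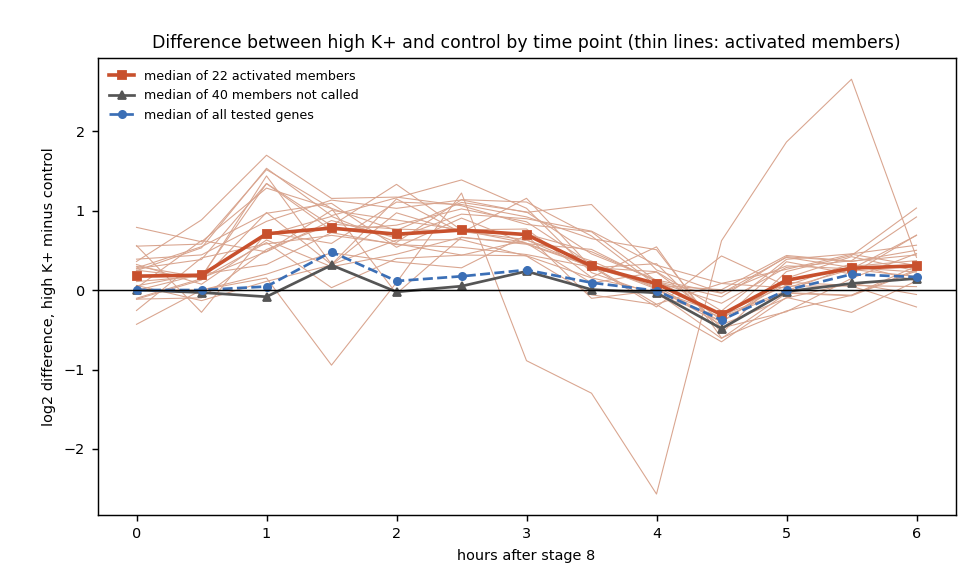
Log2 difference, high K+ minus control (vertical axis), by hours after stage 8, for each of the 22 activated genes (thin lines), with the medians of these genes (squares), of the 40 genes not called (triangles) and of all tested genes (circles). The median of activated genes stayed near 0.7 to 0.8 from 1 to 3 h while the other medians stayed at or below 0.48, and all 3 medians were below 0 at 4.5 h; the thin line that leaves the others is *pcdh10*.

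Genes that work with these proteins were read from a list of 88 symbols outside the rule, of which 67 rows were tested. In control, 19 of them rose and 30 fell between 0-1 h and 5-6 h, where 19.5% and 55.7% of all tested genes did. Of 11 regulators of adhesion 9 rose and 1 fell, with a median log2 change of 2.74, and of 18 matrix genes and modifying enzymes 8 rose and 4 fell, with a median of 0.17. Among them, *snai1*, a repressor of *cdh1*, went from a mean of 45.2 in the first 3 control samples to 306 in the last 3, and *twist1*, a factor of the mesenchymal transition, from 1.43 to 94.4. None of the 10 tight junction partners rose and 9 fell, and none of the 14 integrin adaptors rose and 8 fell. These counts come from unscaled values only.

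Against control, 27 of the 67 were activated in high K+ and 4 repressed, beside 29.6% and 9.25% of all tested genes. The adaptors that link integrins to actin had the largest share, 8 of 14 with none repressed, among them *ptk2*, the focal adhesion kinase (mean log2 difference 0.62), *src* (0.67) and *parva* (0.61). The scaffold *ilk* counted among them with 2 rows, at 0.65 and 0.29. Of 18 matrix genes and modifying enzymes 8 were activated, of 10 tight junction partners 5, of 14 linkers of adherens junctions and desmosomes 4, and of 11 regulators 2. *ctnnb1* and *ctnna1*, the beta and alpha catenins that tie cadherins to actin, were called in opposite directions: *ctnnb1* was activated with a mean log2 difference of 0.59 and *ctnna1* repressed with -0.42. Of the regulators, *rnd1*, a small GTPase that weakens cadherin adhesion in *Xenopus*, and *snai1* were activated (0.80 and 0.49), and *grhl3*, a factor of the superficial ectoderm, and *ovol1* were repressed (-0.65 and -0.24). In the windows, 15 of the 67 were higher at 0.5 to 1.5 h, 16 at 2 to 3 h and none later, where the first pair of windows had 12.2% and 15.7% of all tested genes higher. All calls for this list come from unscaled values, and how they depend on the scaling was not tested.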

How the data were processed

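Embryo RNA was sequenced for 13 control and 13 high K+ samples. The authors mapped reads to the Xt9.1 genome (STAR), estimated isoform TPM (RSEM), corrected these for dinucleotide content and added up isoforms by gene. The correction was a linear model of the ERCC spike-ins. It was fitted once per condition, as the bias by base content differed between the conditions. The deposited values are signal values of this kind, listed for 34192 genes beside 92 spike-ins. Reads per gene were not used here, so depth is unknown and counting intervals could not be given. KCl at 10 mM and stage 13 at the end follow the RNA-seq methods, and other parts of the paper state another concentration and stage.

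Genes above 0.4 in 6 consecutive samples of a condition were tested. Gaussian processes (Matern kernel, alpha 1, beta 1000, priors of the methods, time in hours, mean 0) were fitted with numba 0.67.0, scipy 1.17.1, numpy 2.4.6 and pandas 2.3.3 (Python 3.11.15), and genes with a log-likelihood ratio over 0 were called. Changes and windows were tested on log2(abundance + 1) in limma 3.58.1 (R 4.3.3), with Benjamini-Hochberg adjusted p-values under 0.05 over all tested genes. Both were tested on simulated data. Figures were drawn with matplotlib 3.10.9.

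The replicate number in the labels is the time point, which pairs samples across conditions. Deviations of same-time samples from their window means correlated at -0.20 to 0.56, with 3 pairs at or below 0.1. Members and lists were chosen with earlier results of these data known. Named genes were well known members, the most abundant of each family, the 10 activated and 10 repressed with the largest ratio, and the 8 risen and 8 fallen with the largest change in control. *ctnnb1*, *ctnna1*, *ilk*, *ptk2*, *src*, *parva*, *rnd1*, *snai1*, *twist1*, *grhl3* and *ovol1*, and members outside this rule, were named after their values were seen. Alternatives were scalings, filters, a pseudocount of 0.1, the Bayesian information criterion, limma over the course and leaving out each time point. The result of 1 member is not reported here, and it stays in the counts and medians.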

Additional observations from a re-analysis of the deposited data

How the results depend on the processing

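Of the 62 members tested, 22 were activated and none repressed. Spike-in scaling gave 13 and 3, scaling each pair to a median ratio of 1 gave 15 and 4, and the Bayesian information criterion gave 10 and 0. Without the filter, 142 members were fitted, of which 32 were activated and 14 repressed. Limma over the course gave 19 and 4 with the time point as a block, pairing samples of one time, and 2 and 0 without it. Leaving out each time point gave 17 to 24 activated and 0 to 2 repressed. Under these other settings calls were counted for members only, so no share of all tested genes stands beside them.

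In control, 24 rose and 24 fell, and under median ratio scaling 33 and 9, beside 36.8% and 31.0% of all tested genes. Among others, this scaling turned the log2 change in control of *cldn4* to 1.15, *itgb1* to 1.10, *tjp3* to 0.91, *itgb1bp1* to 0.50, *itgb5* to 0.33 and *col9a2* to 0.024. In high K+, 20 rose and 21 fell, median ratio scaling gave 33 and 9, and spike-in scaling 18 and 10. Without the filter it was 31 and 22 of 142 members, beside 15.2% and 31.3% of the genes then tested. Leaving out a time point gave 21 to 25 falls in control and 15 to 24 in high K+. Of all tested genes, 49.8% to 58.5% and 47.7% to 57.1% then fell.

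At 0.5 to 1.5 h, 11 were higher, 4 under median ratio scaling, 0 under spike-in scaling, 14 with the block and 0 to 12 without a time point. Over all tested genes the shares were 12.2%, 6.61%, 0.0599%, 17.0% and 0.107% to 14.7%. At 2 to 3 h, 12 were higher, then 7, 0, 17 and 1 to 8, beside 15.7%, 9.83%, 0.36%, 21.2% and 2.84% to 9.35% of all tested genes. In this window 1 was lower under median ratio scaling (*cdh16*) and with the block (*cldn1*). The difference of the changes passed for 0 to 1 member when a time point was left out.

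The cause of these dependences was not tested. The depth of the samples is unknown, each condition is 1 time course, and differences common to a sample move with the scaling.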

Other observations

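Summed over their tested members only, the families differed in how far their levels ranged over the 13 samples of a condition. The claudin sum ranged from 4877 to 9326 in control and from 5483 to 13986 in high K+. The sum of integrin alpha chains ranged from 49.7 to 169 and from 60.1 to 330, and that of cadherins from 27.8 to 184 and from 24.4 to 308. These sums are led by *cldn7*, *itga5* and *cdh1*, and they are given as values without a test. The cadherin sum does not hold *cdh3*, a symbol that no row carried.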
